A study of Mus musculus with 6 samples.

Results

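The proteins of the cytosolic ribosome were described as mRNAs in antigen-activated CD4+ T cells with and without the histone deacetylase HDAC1. Members were the protein-coding genes whose symbol is that of a ribosomal protein of the large subunit (Rpl) or the small subunit (Rps), leaving out the Rps6k kinases. There were 84 members among the 55536 genes of the count table, 52 of the large and 32 of the small subunit. HDAC1-cKO cells were 2D2-Hdac1fl/fl-Cd4-Cre+ and WT cells 2D2-Hdac1fl/fl-Cd4-Cre-, so that all groups carried the floxed Hdac1 alleles and the 2D2 transgene, a T cell receptor for a myelin oligodendrocyte glycoprotein (MOG) peptide. All were labelled with the strain C57BL/6, and the Cd4 promoter that drives Cre is active from a thymic stage onwards, not from the time of the experiment. Naive cells were transferred into recipients that differ in the CD45 allele. The recipients were immunised with MOG peptide in complete Freund's adjuvant 18 h later, and donor CD4+ T cells were sorted from the popliteal lymph node 4 days after that. Each library held 500 cells from a pool of 2 mice, with 3 libraries per genotype. No source used here gives the ages of the mice.

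A ribosome contains a single copy of most of its proteins, the large subunit carrying the site where peptide bonds form and the small subunit the site where the mRNA is read. Cells that divide, as activated T cells do, devote much of their mRNA to these proteins, and the genes are among the most evenly expressed of a genome. Many of the mRNAs start with a run of pyrimidines after an initial C, the 5′ terminal oligopyrimidine (TOP) motif. Through this motif the kinase mTORC1 controls their translation. Proteins made in excess of their partners are degraded, which is known to even out unequal mRNA levels. RNA counts therefore say nothing of protein amounts or of translation.

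Reference promoters were read at the annotated start sites of the members. RefSeq windows (GRCm38.p6, from 250 bases before to 50 after an annotated start) were found for 64 of the 84 members. The stretches from 40 bases before the start to 20 bases from it are printed 5′ to 3′ on the gene's strand for members on which the later results turn. Capitals mark a TOP start, read as a C at the annotated start followed by at least 4 bases that are C or T, or the ETS factor motif CCGGAAG on either strand. The first 5 hold a TOP start by this rule, and the last 4 do not.
Rps6 (chr4:86857348-86857407, minus strand): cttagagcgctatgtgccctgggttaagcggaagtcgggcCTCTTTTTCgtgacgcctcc
Rps18 (chr17:33955646-33955705, minus strand): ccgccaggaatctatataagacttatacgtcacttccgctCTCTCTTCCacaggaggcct
Rplp2 (chr7:141447611-141447670, plus strand): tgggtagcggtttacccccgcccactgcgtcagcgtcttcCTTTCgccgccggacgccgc
Rps27 (chr3:90213629-90213688, minus strand): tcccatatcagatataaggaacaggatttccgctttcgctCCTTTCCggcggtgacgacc
Rpl38 (chr11:114668540-114668599, plus strand): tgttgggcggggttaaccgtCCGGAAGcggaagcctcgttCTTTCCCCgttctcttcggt
Rps27l, first of 2 annotated starts (chr9:66946046-66946105, plus strand): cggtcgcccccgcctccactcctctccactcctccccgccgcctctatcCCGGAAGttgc
Rps15 (chr10:80292391-80292450, plus strand): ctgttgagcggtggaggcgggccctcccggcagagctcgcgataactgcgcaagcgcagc
Rps28 (chr17:33824543-33824602, minus strand): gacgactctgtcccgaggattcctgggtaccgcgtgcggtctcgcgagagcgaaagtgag
Rpl22l1 (chr3:28805468-28805527, plus strand): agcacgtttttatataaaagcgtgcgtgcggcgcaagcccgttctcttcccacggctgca

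A TOP start was found by this rule in 13 of the 64 members with a window (20.3%), against 3.01% of 27025 genes with a window. These 13 were Rpl14, Rpl15, Rpl28, Rpl35, Rpl35a, Rpl38, Rplp2, Rps6, Rps10, Rps15a, Rps18, Rps21 and Rps27. The rule reads only from the annotated base: in Rpl22l1 a run of pyrimidines begins 1 base after the start and was not counted. The printed stretch of Rps15 ends before that gene's first base in the count table. A member without a match is therefore not shown to lack a TOP start. The ETS motif CCGGAAG was found on either strand of the whole window in 26 of 64 members (40.6%), against 9.93% of all genes, and the YY1 motif AAGATGGC in 6 of 64 (9.38%), against 3.19%. A match describes letters in a window and shows no binding. Members with a TOP start had a median log2 difference between HDAC1-cKO and WT of 0.05 (10 of 13 above 0), and the other 49 tested members with a window had a median of 0.05 (27 above 0). Members with the ETS motif had a median of 0.06 (20 of 26 above 0) and those without it one of 0.00 (17 of 36). For the YY1 motif the medians were 0.04 (4 of 6) and 0.05 (33 of 56). Without HDAC1-cKO replicate 2 the medians with and without a TOP start were 0.04 (8 of 13 above 0) and -0.03 (20 of 49). Those with and without the ETS motif were then 0.02 (14 of 26) and -0.04 (14 of 36), and for YY1 they were -0.02 (3 of 6) and -0.03 (25 of 56). None of these differences was tested.

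The libraries held between 19956153 and 55900237 counts, the WT ones being the deeper. Hdac1 checked the labels: its level in counts per 1000000 counts of the library (CPM) was 15.8 ± 1.32 in HDAC1-cKO against 238 ± 5.06 in WT (SD, n = 3; log2 difference -3.91 ± 0.12 SE, adjusted p = 9.59e-06, edgeR). HDAC1-cKO replicate 2 stood apart in composition: over 4874 genes that are not members, its deviation from the mean of the 6 libraries correlated with the GC content of the transcript at r = 0.66, against -0.34 to -0.07 in the other 5 libraries. Of the marker lists, CD4 T cell genes summed to 23441 to 31497 CPM in HDAC1-cKO and 27255 to 32658 CPM in WT, and 8 of the 9 had a log2 difference below 0 (median -0.31). Cd3e was called lower (-1.42, adjusted p = 0.0102) by edgeR; DESeq2 called 3 of the 9 lower, limma-voom 8, and edgeR without HDAC1-cKO replicate 2 called 5. The other lists were low: 66.3 to 74.9 against 48.4 to 62.7 CPM for CD8 T and NK cells (Ncr1 and Klra8 at 0), and 34.9 to 67.2 against 16.8 to 44.2 CPM for B cells. Plasma cell genes, some of which T cells also express, summed to 358 to 439 against 404 to 474 CPM. Myeloid and dendritic genes gave 135 to 372 against 63.1 to 295 CPM (Cd14, Csf1r, Flt3 and S100a8 at 0), and erythroid and stromal genes 62.3 to 83.5 against 65.7 to 103 CPM (Hbb-bs and Col1a2 at 0). Of these 5 lists edgeR called 0 genes, the lowest adjusted p in each being that of Cd8b1 (0.127), Cd79b (0.0592), Prdm1 (0.206), Lyz2 (0.206) and Pdgfrb (0.0948). DESeq2 called Cd8b1, Cd79b and Pdgfrb higher, and limma-voom called Cd79b and Pdgfrb higher and Klrb1c lower. The part of all marker lists in the results below was not tested.

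No ribosomal protein mRNA passed the test between the genotypes. Of the 82 members that could be tested, 0 were called higher and 0 lower by edgeR's quasi-likelihood test at an adjusted p under 0.05, against 0.979% of 15519 genes called higher and 0.992% called lower (1.97% in all). The lowest adjusted p among the members was 0.309, of Rps15. At an unadjusted p under 0.05 there were 0 members, against 17% of all tested genes. DESeq2 called 0 members and 7.62% of all genes to which it gave an adjusted p. Limma-voom with sample weights called 1 member, Rps27l (higher), and 10.2% of all genes. Libraries of the genotypes did not overlap for 3 members higher and 2 members lower in HDAC1-cKO, that is 5 of 82, against 24.6% of all genes tested (12.7% higher and 11.8% lower). In bulk RNA, fewer transcripts per cell and a different make-up of the 500 cells cannot be told apart. The p-values rest on the spread between libraries, in which the pool of mice and the handling of each library are not separated.

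The differences themselves were small. The median log2 difference of the 82 members was 0.05 (52 above and 30 below 0, range -0.36 to 0.30), against 0.00 over all tested genes. Differences stayed under 0.1 on the log2 scale for 47 members and under 0.3 for 79. A test that misses its threshold does not show equal levels, so the 95% intervals were read as well. They lay within 1.5-fold in both directions for 74 members and within 2-fold for 80. The 8 members with wider intervals than 1.5-fold were Rpl22l1, Rpl29, Rpl36, Rpl38, Rpl39l, Rps10, Rps15 and Rps28, and those beyond 2-fold were Rpl39l and Rps10, the least abundant members tested. The members also varied little among replicates: their median SD within a genotype was 0.13 on the log2 scale, against 0.16 for 2042 other genes above 100 CPM and 0.25 for all tested genes.

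**Figure D1:**
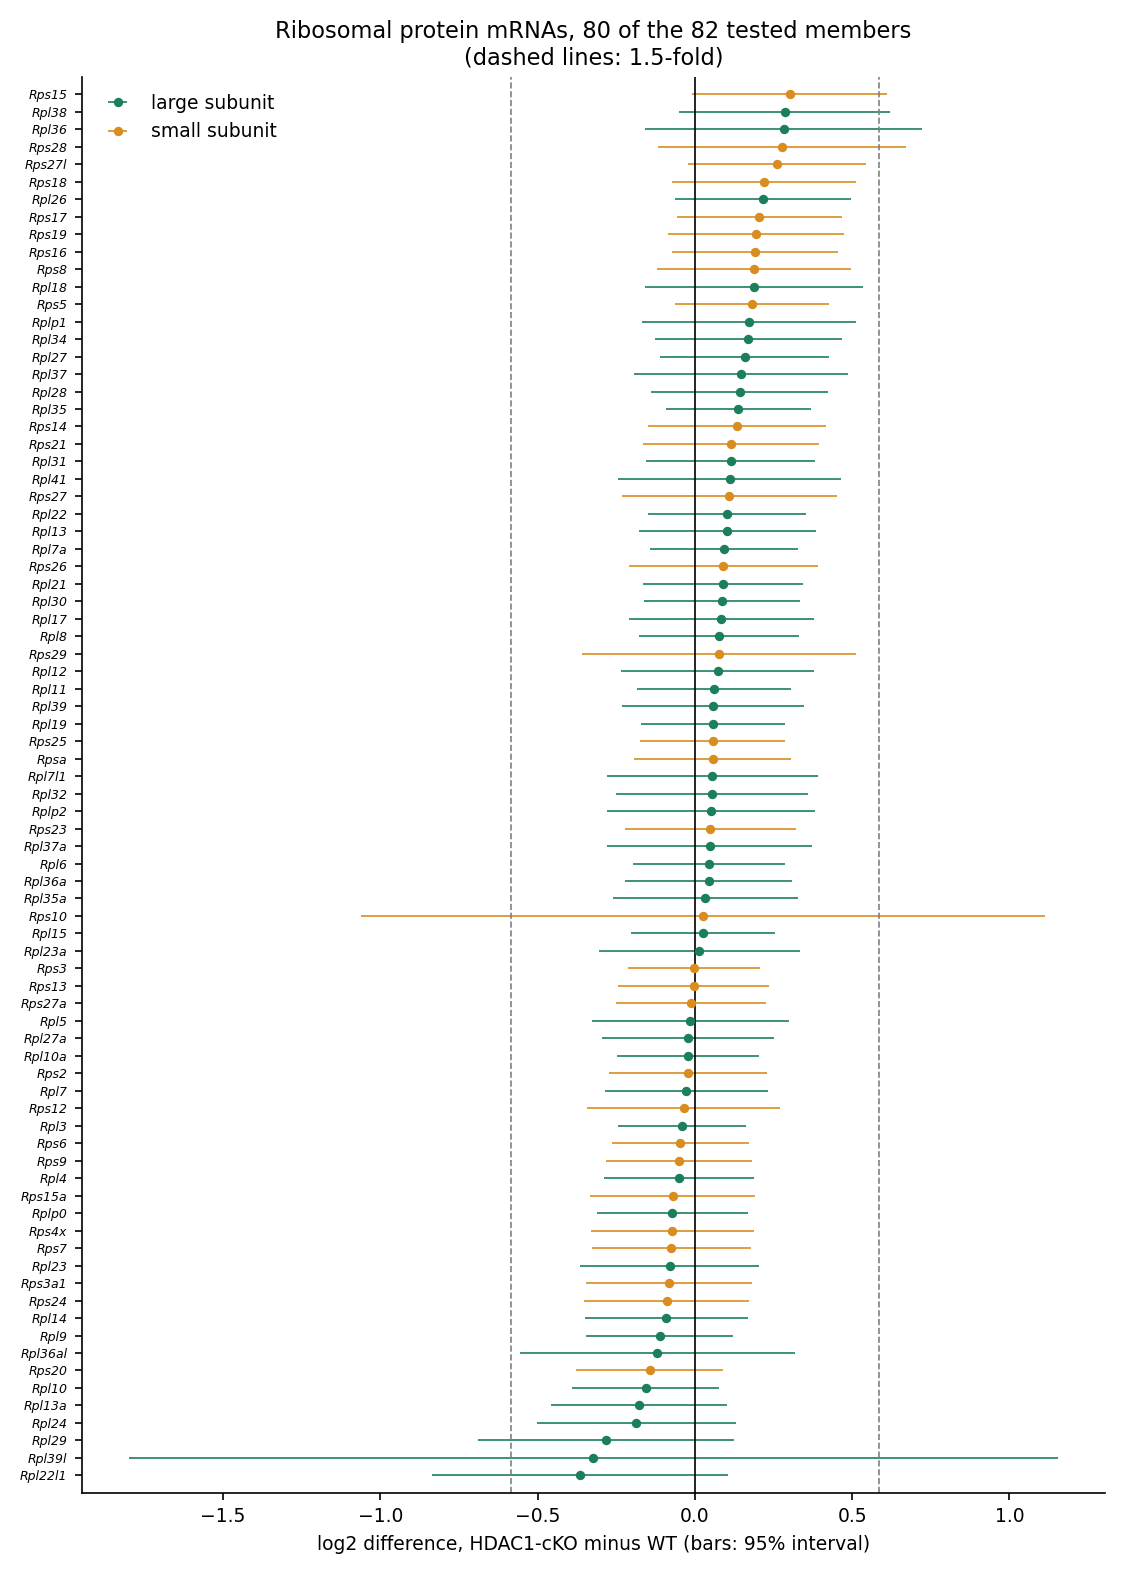
Log2 difference in mRNA level between HDAC1-cKO and WT (horizontal axis) for 80 of the 82 tested ribosomal protein genes, ordered by size. Points are edgeR estimates from 3 against 3 libraries, bars are 95% intervals, green marks the large and orange the small subunit. The intervals of all 80 drawn cross 0, and those of Rpl39l and Rps10 are the widest.

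Large and small subunit members had close medians, and the difference between the subunits was not tested. The 50 tested members of the large subunit had a median log2 difference of 0.05 (33 above 0, range -0.36 to 0.29), and the 32 of the small subunit one of 0.05 (19 above 0, range -0.14 to 0.30). Without HDAC1-cKO replicate 2 the medians were 0.01 (27 of 50 above 0) and -0.03 (12 of 32). Members whose libraries did not overlap were 0 higher and 2 lower of the 50 in the large subunit. In the small subunit they were 3 higher and 0 lower of 32. Of all tested genes, 12.7% were higher and 11.8% lower without overlap. As a share of all counts, the 84 members took 3.92%, 4.46% and 3.97% in HDAC1-cKO replicates 1, 2 and 3. They took 4.21%, 3.63% and 3.67% in WT replicates 1, 2 and 3. The groups overlapped, since WT replicate 1 lay above HDAC1-cKO replicates 1 and 3, and the means of 4.12% ± 0.297 and 3.84% ± 0.323 (SD, n = 3) differed by less than 1 SD. Without HDAC1-cKO replicate 2 the difference of the means fell from 0.28 to 0.109 percentage points. The ratio of large to small subunit counts was 1.34, 1.29 and 1.32 in HDAC1-cKO and 1.37, 1.34 and 1.35 in WT. HDAC1-cKO replicate 1 lay within the WT range, and the lowest ratio belonged to HDAC1-cKO replicate 2. A share or ratio of counts also depends on transcript length, and on a scale corrected for it, the share of summed FPKM (fragments per kilobase of transcript and sequencing depth), members took 6.11% ± 0.274 in HDAC1-cKO and 5.69% ± 0.515 in WT.

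**Figure D2:**
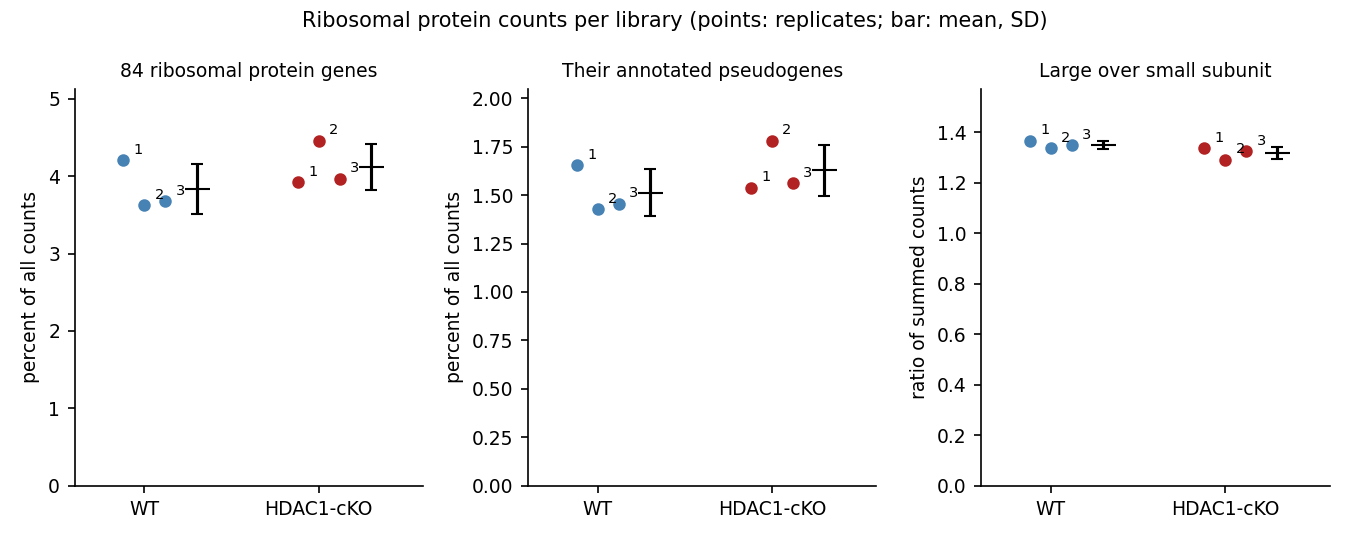
Share of all counts taken by the 84 ribosomal protein genes (left), share taken by the pseudogenes tied to them (middle) and ratio of large to small subunit counts (right), by genotype. Numbered points are replicates and bars are mean and SD of 3 libraries. HDAC1-cKO replicate 2 at 4.46% and WT replicate 1 at 4.21% are the highest of their genotypes, and the genotypes overlap in all 3 panels.

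Levels of most members shifted in the same direction in some libraries of each genotype. WT replicate 1 was the highest of the 3 WT libraries for 77 of 82 members, and WT replicate 2 was the lowest of all 6 for 38. HDAC1-cKO replicate 2 was the highest of the 6 for 40 members and the lowest for 12. The median deviation of the members from their own mean over the 6 libraries was 0.12 on the log2 scale in HDAC1-cKO replicate 2 and 0.12 in WT replicate 1, and it lay between -0.11 and -0.02 in the other 4. The libraries of 1 genotype thus differed among themselves by more than the genotypes' medians did.

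In HDAC1-cKO replicate 2 the deviation rose with GC content, and in some other libraries it fell. The rank correlation over the tested members was -0.31, 0.43 and -0.03 in HDAC1-cKO replicates 1 to 3. It was -0.40, -0.38 and -0.003 in WT replicates 1 to 3. Deviations from a shared mean are not independent between libraries. The transcripts of the tested members run from 40.58% GC in Rpl22l1 to 60.84% in Rpl36. In HDAC1-cKO replicate 2 the 27 members with at most 48.69% GC had a median deviation of 0.03, and the 28 with at least 52.95% one of 0.25. In WT replicate 1 the same classes were at 0.16 and 0.08. Between the genotypes, the high-GC class had a median log2 difference of 0.09 (21 of 28 above 0) and the low-GC class one of 0.00 (13 of 27). Without HDAC1-cKO replicate 2 the medians were -0.01 (13 of 28) and -0.03 (11 of 27), and over all 82 members the median was then -0.01, with 39 above 0 and 0 called (3.88% of all genes). Offsets that removed the trend of each library with GC content alone left a median of 0.03 over the members, with 56 of 82 above 0. Deviations also ran with log transcript length, over 4874 genes that are not members. The correlations were 0.02, -0.31 and -0.03 in HDAC1-cKO replicates 1 to 3 and 0.11, 0.25 and 0.16 in WT replicates 1 to 3, without overlap. For HDAC1-cKO replicate 2 the median offset of members was 0.04 with GC content alone and 0.12 with length added. The parts of GC content and length were not tested. Offsets for GC content and transcript length gave a median over the members of -0.02, with 36 of 82 above 0, and upper-quartile scaling gave 0.09, with 61 above 0. In each of these fits 0 members were called, against 3.6% of all genes with the GC offsets, 3.4% with GC and length offsets and 2% with upper-quartile scaling.

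**Figure D3:**
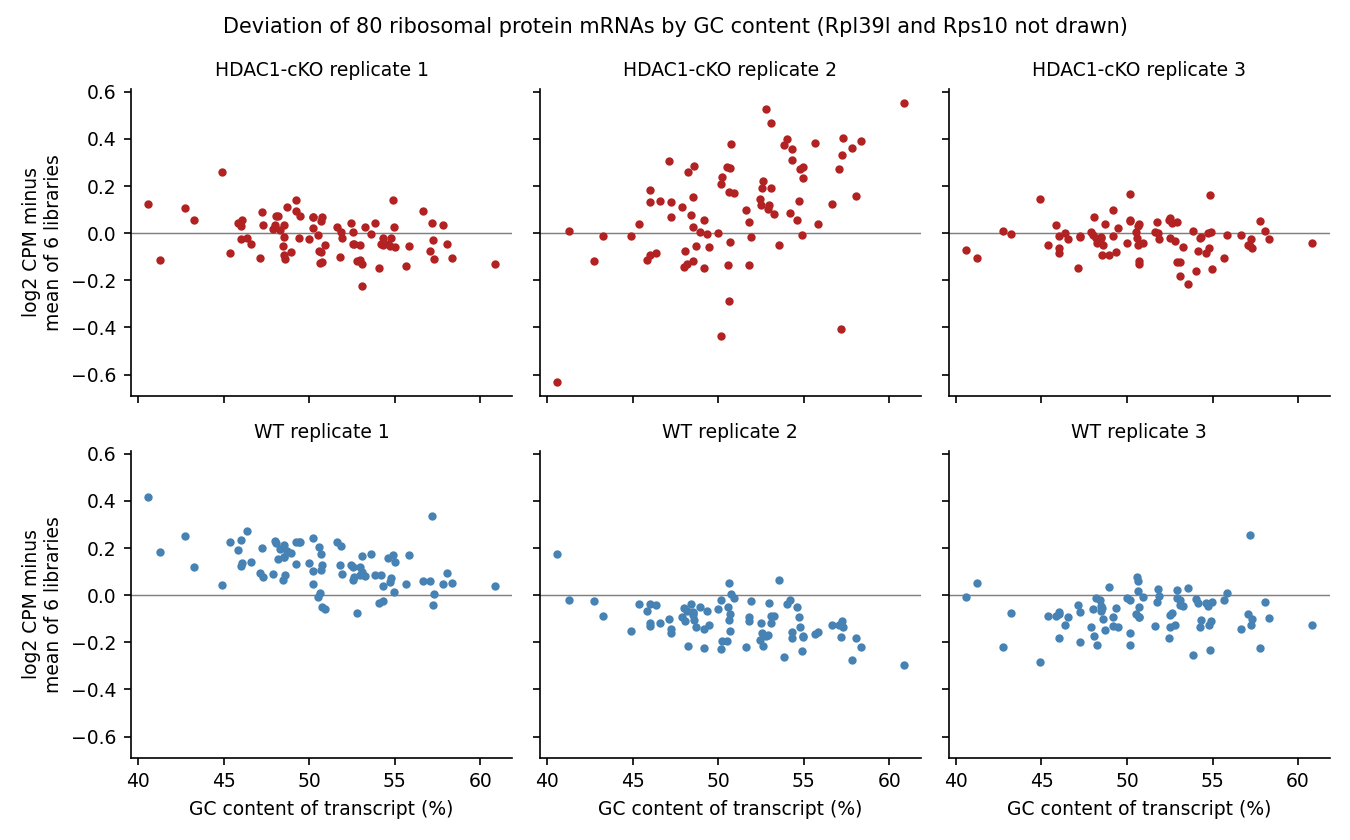
Deviation of each ribosomal protein mRNA from its mean over 6 libraries (vertical axis, log2 CPM) against the GC content of its transcript (horizontal axis, percent), 1 panel per library, for 80 of the 82 tested members. Points are genes, red in HDAC1-cKO and blue in WT, and Rpl39l and Rps10 are not drawn because of their low counts. In HDAC1-cKO replicate 2 the members with at least 52.95% GC lie higher, with a median deviation of 0.25.

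The members with the highest differences were led by Rps15, a protein of the small subunit head encoded at chr10:80292453-80294114 (GRCm38, plus strand). Rps15 was at 469, 588 and 475 CPM in HDAC1-cKO replicates 1 to 3 and at 473, 378 and 392 CPM in WT replicates 1 to 3. WT replicate 1 fell among the HDAC1-cKO values, so the groups overlapped. The difference was 0.30 ± 0.13 (log2, SE; 95% interval -0.01 to 0.61) and 0.18 without HDAC1-cKO replicate 2. Rpl38, a small protein of the large subunit that is known for its part in translating Hox mRNAs, was at 351, 442 and 343 CPM in HDAC1-cKO and at 362, 284 and 286 CPM in WT (0.29 ± 0.15, adjusted p = 0.379; 0.15 without HDAC1-cKO replicate 2). Rpl36 was at 213, 342 and 227 CPM against 240, 190 and 214 CPM (0.28 ± 0.19, adjusted p = 0.519). Rps28, which sits at the exit of the mRNA channel, was at 275, 430 and 291 CPM against 283, 265 and 273 CPM (0.28 ± 0.17, adjusted p = 0.474). For Rpl36 and Rps28 the difference rested on HDAC1-cKO replicate 2, and without it the values were 0.03 and 0.04.

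The lowest differences belonged to members of the large subunit. Rpl22l1 (chr3:28805436-28807424, plus strand) was at 94.0, 55.8 and 82.1 CPM in HDAC1-cKO and at 115, 97.4 and 85.9 CPM in WT. HDAC1-cKO replicate 1 lay above WT replicate 3, and the difference of -0.36 ± 0.20 (95% interval -0.83 to 0.10, adjusted p = 0.423) was -0.18 without HDAC1-cKO replicate 2. Rpl29 was at 81.0, 59.3 and 75.7 CPM against 99.1, 69.5 and 93.8 CPM (-0.28 ± 0.18, adjusted p = 0.485; from -0.43 without WT replicate 2 to -0.17 without HDAC1-cKO replicate 2). Rpl24, a protein of the bridge between the subunits, was at 38.8, 30.6 and 36.2 CPM against 42.2, 38.8 and 39.1 CPM (-0.19 ± 0.14, adjusted p = 0.562; -0.10 without HDAC1-cKO replicate 2). The Rpl24 libraries did not overlap, but HDAC1-cKO replicate 1 and WT replicate 2 differed only past the first decimal. Rpl39l was at 1.72, 1.12 and 0.343 CPM against 0.605, 1.85 and 1.58 CPM, and these groups overlapped throughout.

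The 5 of 82 members whose libraries did not overlap were Rps16, Rps18 and Rps19, higher in HDAC1-cKO, and Rpl13a and Rpl24, lower. Among all tested genes the share without overlap was 24.6%. Rps16 was at 641, 782 and 646 CPM in HDAC1-cKO replicates 1 to 3 and at 640, 562 and 608 CPM in WT replicates 1 to 3. Its means were 689 ± 80.1 and 603 ± 39.2 CPM (SD, n = 3), with a log2 difference of 0.19 (adjusted p = 0.456, edgeR). Rps19, the member most often mutated in Diamond-Blackfan anaemia, was at 913, 1173 and 917 CPM in HDAC1-cKO and at 905, 865 and 855 CPM in WT. Rps18 was at 637, 827 and 638 CPM against 636, 580 and 588 CPM. In Rps16, Rps18 and Rps19, HDAC1-cKO replicates 1 and 3 lay only just above WT replicate 1. The differences were 0.19 ± 0.12 for Rps19 (adjusted p = 0.481) and 0.22 ± 0.13 for Rps18 (adjusted p = 0.438), and without HDAC1-cKO replicate 2 they were 0.06 and 0.08. Rpl13a, which in monocytes is released from the ribosome to silence inflammatory mRNAs, was at 49.7, 48.2 and 42.9 CPM against 56.3, 52.0 and 50.9 CPM (-0.18 ± 0.12, adjusted p = 0.526).

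The ribosomal stalk gene Rplp0 had the highest mean of the deposited FPKM among the members. Its FPKM, which the authors deposited, were 1498, 1754 and 1490 in HDAC1-cKO and 1756, 1586 and 1655 in WT. The stalk is the flexible arm of the large subunit on which elongation factors dock, built on Rplp0 with copies of Rplp1 and Rplp2. The log2 differences of the 3 stalk genes were -0.07 ± 0.10 for Rplp0, 0.17 ± 0.15 for Rplp1 and 0.05 ± 0.14 for Rplp2. None passed the test, and that of Rplp1 was -0.02 without HDAC1-cKO replicate 2.

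Other high members were Rpl13, with a mean of 1282 FPKM over the 6 libraries, Rps27 with 1222 and Rps18 with 1148. Rpl13 and Rps27 did not differ beyond their spread, Rpl13 lying between 1173 and 1535 FPKM and Rps27 between 1112 and 1569. Their log2 differences between the genotypes were 0.10 ± 0.12 for Rpl13 and 0.11 ± 0.15 for Rps27. The median FPKM over tested members was 458. FPKM rest on the length the authors gave each gene, and for 44 of 80 members checked that length exceeded the main annotated transcript by over 1%, up to 5.03-fold, which lowers the level but not a difference between libraries. The order of levels depends on it: the length used for Rps27 was 1.34 times its main transcript, and that for Rplp0 was equal to it.

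Among well-studied members, Rpl5, Rpl11, Rps6, Rpsa and Rps14 were also close between the genotypes. Other members described here with a special role had larger log2 differences, such as -0.18 for Rpl13a, 0.29 for Rpl38 and 0.26 for Rps27l. Rpl5 and Rpl11, which bind MDM2 and so stabilise p53 when ribosome assembly is disturbed, had log2 differences of -0.01 ± 0.14 and 0.06 ± 0.11. Rpl5 was at 1147, 982 and 1072 CPM in HDAC1-cKO and at 1270, 1047 and 915 CPM in WT, with wide overlap. Rps6, the substrate of the S6 kinases that T cell activation switches on, was at 802, 816 and 793 CPM against 898, 785 and 808 CPM (-0.05 ± 0.09). Rpsa, also known as the laminin receptor, differed by 0.06 ± 0.11 and Rps14, whose loss underlies a human myelodysplastic syndrome, by 0.13 ± 0.12. Of these 5, Rps6 had the narrowest 95% interval, from 0.833 to 1.13-fold.

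Several members have a close copy that can replace them in the ribosome, and these pairs were compared by the ratio of FPKM within a library. Rpl22, whose loss in mice blocks the development of most T cells, was at 140, 150 and 136 CPM in HDAC1-cKO and at 145, 123 and 130 CPM in WT (log2 difference 0.10 ± 0.11). The ratio of its copy Rpl22l1 to Rpl22 was 246%, 136% and 223% in HDAC1-cKO and 293%, 292% and 243% in WT. The ratio was lowest in HDAC1-cKO replicate 2, and HDAC1-cKO replicate 1 exceeded WT replicate 3. The means were 202% ± 57.8 in HDAC1-cKO and 276% ± 28.9 in WT (SD, n = 3). A two-sided exact permutation test on the mean log2 ratios gave p = 0.2 (0.75 adjusted over 5 pairs). The smallest p that 3 against 3 allows is 0.1. That both ratios exceed 100% depends on a gene length for Rpl22 that is 4.36 times its main transcript; in CPM, Rpl22 was the higher of the pair in all 6 libraries.

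Rps27l, a copy of Rps27 that p53 is known to induce, had the fifth highest difference of all members. Rps27l (chr9:66946086-66949516, plus strand) was at 457, 379 and 423 CPM in HDAC1-cKO and at 393, 344 and 314 CPM in WT. Only HDAC1-cKO replicate 2 lay below WT replicate 1. The difference was 0.26 ± 0.12 (95% interval -0.02 to 0.54, adjusted p = 0.336) and 0.32 without HDAC1-cKO replicate 2. It was called higher by limma-voom with sample weights (0.34), which called 4.96% of all genes higher, and by no other setting tried. As a ratio to Rps27, Rps27l was at 58.4% ± 15.4 in HDAC1-cKO and 50.7% ± 5.58 in WT (p = 0.6, exact permutation test).

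The remaining copies were at lower ratios. Rpl36al stood at 4.66% ± 1.23 of Rpl36a in HDAC1-cKO and 5.14% ± 0.0528 in WT (p = 1.0), and Rpl7l1, a nucleolar assembly factor rather than a true replacement, at 12.6% ± 0.592 and 11.9% ± 0.82 of Rpl7 (p = 0.3, both exact permutation tests). The length behind the FPKM of Rpl36al was 2.57 times its main transcript, which lowers its ratio. Rpl39l, best known from testis, reached 0.482% ± 0.299 and 0.675% ± 0.375 of Rpl39 (p = 0.5, exact permutation test). Rpl3l, the copy of Rpl3 in heart and skeletal muscle, had 0, 0 and 3 counts in HDAC1-cKO and 2, 19 and 0 in WT and was not tested. Rpl10l, the testis copy of Rpl10, had 0 counts in every library, where 3 counts, the limit that a count of 0 allows, correspond to 0.0545 to 0.147 CPM. Rpl3, Rpl10 and Rps4x themselves, at means of 748 ± 2.27, 817 ± 33.4 and 430 ± 22.7 CPM in HDAC1-cKO, differed from WT by -0.04, -0.16 and -0.07 on the log2 scale, and none passed the test. A copy Rps4l was not analysed here.

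**Figure D4:**
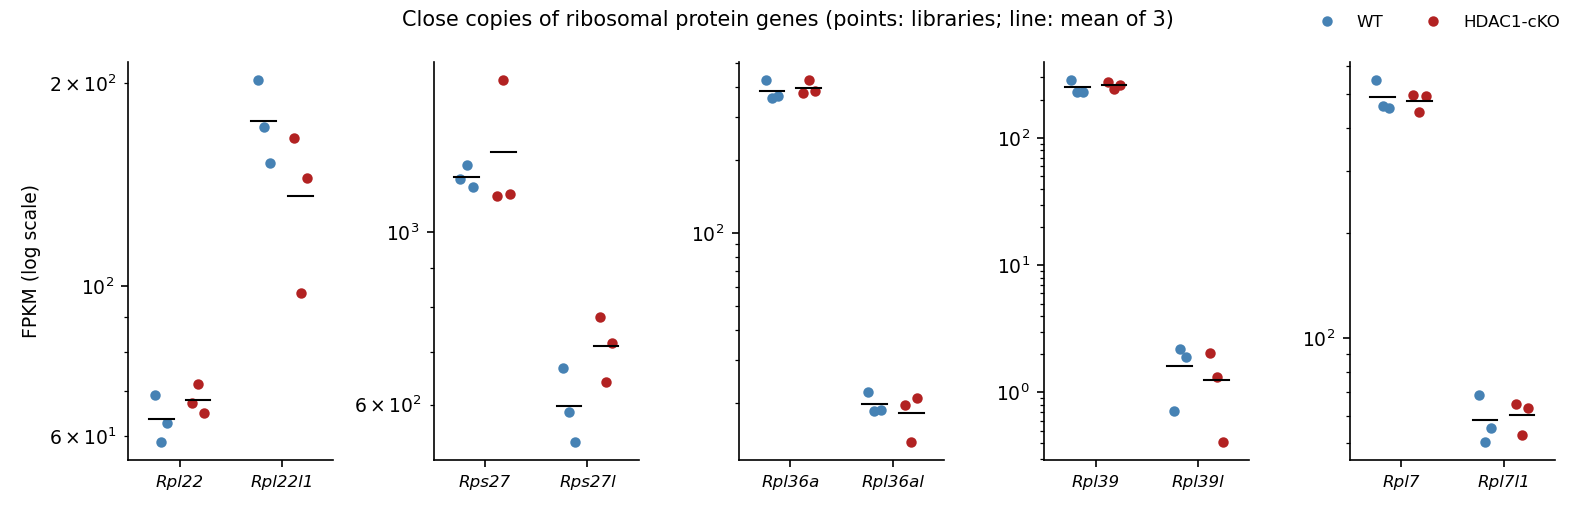
FPKM (log axis, scaled separately in each panel) of 5 ribosomal protein genes and their close copies, by library. Points are libraries, blue WT and red HDAC1-cKO, and lines are means of 3. Rpl39l and Rpl36al lie far below Rpl39 and Rpl36a, while Rps27l lies at 50.7% to 58.4% of Rps27 on average.

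How many reads a member receives also depends on its pseudogenes, the retrocopies for which ribosomal proteins are known. Of the 50-base stretches of a member's main transcript, the length of a read, a median of 52.7% occurred in the transcript of at least 1 other annotated gene, and 45 of 84 members shared over 50%. These matches were to any gene on either strand: Rpl35 shared 95.09% in all but 28.99% with pseudogenes. Genes on the opposite strand overlap 66.16% of the exon bases of Rpl35 and over 20% in 6 members. The library kit does not mark the strand of such reads. Rps27 shared 98.65%, among others with the retrocopy Rps27rt, which was listed at a mean FPKM of 541 in HDAC1-cKO and 494 in WT. By name or by shared stretches, 1180 pseudogenes were tied to 81 members, and together they took 1.63% ± 0.133 of all counts in HDAC1-cKO and 1.51% ± 0.123 in WT. Among the most counted were Gm9625, tied to Rplp0, at 336 ± 36.2 against 356 ± 13.9 CPM, and Gm15500, tied to Rpl5, at 323 ± 17.8 against 317 ± 47.8 CPM. Of the 632 pseudogenes tested, edgeR called 0, against 1.97% of all genes. Their median log2 difference was 0.07, against 0.05 for the members. DESeq2, limma-voom, both kinds of offsets and the fit without HDAC1-cKO replicate 2 each called 1 pseudogene lower. In either direction DESeq2 called 7.62% of all genes and limma-voom 10.2%. The share was 3.6% with GC offsets, 3.4% with GC and length offsets and 3.88% without HDAC1-cKO replicate 2. How reads that match several genes were counted is not given in the sources used here.

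For 5 members the pseudogenes held over 70% of the joint count. Which of these reads came from the member's own mRNA was not tested. These were Rps10 (97.2%), Rpl23a (79.6%), Rpl29 (78.4%), Rpl24 (74.1%) and Rpl13a (72.1%). Rps10 (chr17:27630418-27636669, minus strand), an essential protein of the small subunit, was listed at only 2.55, 0.776 and 1.52 CPM in HDAC1-cKO and at 1.89, 1.56 and 1.29 CPM in WT. Its pseudogene Rps10-ps1 was at a mean of 33.2 CPM over the 6 libraries, and 20.55% of its exon bases also belong to the read-through gene RPS10-NUDT3, which had 0 counts. With the pseudogene counts added to each member, the difference of Rpl29 turned from -0.28 to 0.04, and that of Rpl24 moved from -0.19 to -0.13. In this fit 0 members were called, and its share of all genes called is not given here. The edgeR fit without the added counts called 0 members and 1.97% of all genes. Rpl24 and Rpl13a further share 46.99% and 35.38% of their exon bases with same-strand genes, of which Gm28037 and Gm45713 had 0 counts.

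Fau and Rack1 are ribosomal protein genes whose symbols follow another pattern, and neither was called. Fau, which encodes a ubiquitin-like fusion to a protein of the small subunit, was at 626 ± 153 against 631 ± 34.9 CPM. Rack1, a scaffold on the small subunit, was at 781 ± 35.1 against 727 ± 98.4 CPM. Their log2 differences were -0.01 and 0.10.

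Genes that make or serve the ribosome were examined beside the members in 7 lists. EdgeR, which called 1.97% of all genes, called 0 of them. DESeq2, which called 7.62%, and limma-voom, which called 10.2%, called some. Among elongation factors and other TOP messages 0 of 20 were called by edgeR, with a median log2 difference of -0.01. The gene of this list with the lowest p was Vim, the intermediate filament vimentin, with means of 681 ± 98.6 and 1005 ± 38.0 CPM in HDAC1-cKO and WT (-0.56, adjusted p = 0.063), and both other tools called it lower. Of 31 initiation factors 0 were called (median 0.08), and Eif3g had the lowest p (0.39, adjusted p = 0.126) and was called higher by both other tools. Of 27 genes of the mTORC1 pathway and of TOP regulation 0 were called (median 0.00). Eif4ebp1, the repressor of cap-dependent initiation that mTORC1 inactivates, came closest at 46.1 ± 8.15 against 30.4 ± 5.19 CPM (0.60, adjusted p = 0.146), and DESeq2 called it higher.

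Of 76 ribosome assembly factors 64 had a difference above 0, with a median of 0.22, and 0 were called by edgeR. DESeq2 called 6 higher, limma-voom 10 and the GC offsets 4, where these called 7.62%, 10.2% and 3.6% of all genes in either direction. Rrp9, which binds the U3 snoRNA in the processing of ribosomal RNA, had means of 110 ± 12.8 and 70.7 ± 8.11 CPM in HDAC1-cKO and WT, without overlap of the libraries (0.64, adjusted p = 0.0605). With the GC and length offsets 2 assembly factors were called higher, Imp4 and Nmd3, against 3.4% of all genes called. The 15 tested chaperones of nascent chains and ribosomal proteins had a median of 0.29, with 13 above 0, 0 called by edgeR and Pdcd2l closest to the threshold (0.50, adjusted p = 0.119). DESeq2 called 2 of them higher, limma-voom 3, and the GC and length offsets 1, Hspa14. The lists overlap: Grwd1, called by DESeq2 and by limma-voom, was counted both here and among the assembly factors. The 15 genes of the RNA polymerase I machinery, which transcribes ribosomal RNA, had a median of 0.12 (Polr1e 0.36, adjusted p = 0.239), and the 9 tested snoRNA host genes had one of 0.03 (Snhg15 0.53, adjusted p = 0.431).

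Proteins of the mitochondrial ribosome, encoded by separate genes and translating the mitochondrial mRNAs, were set beside those of the cytosolic one. Of 77 tested, 63 had a difference above 0, the median was 0.19, and edgeR called 1, Mrpl2, higher. DESeq2 called 7 higher and limma-voom 9. Of all genes, edgeR called 0.979% higher and limma-voom 4.96% higher. In either direction the shares were 1.97% with edgeR, 7.62% with DESeq2 and 10.2% with limma-voom. Mrpl2 was at 96.9, 115 and 105 CPM in HDAC1-cKO and at 69.6, 66.0 and 70.1 CPM in WT (0.62 ± 0.11, adjusted p = 0.037), so the groups lay well apart. With the GC and length offsets 5 of 77 were called, against 3.4% of all genes. The median was then 0.16, against -0.02 for the cytosolic members. Libraries did not overlap for 28 of the 77 in the higher direction, against 12.7% of all genes and 3 of 82 cytosolic members. The difference between the 2 families was not tested.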

How the data were processed

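Polyadenylated RNA of 500 sorted cells per library was amplified by Smart-seq2 and sequenced as 50-base single reads, per the labels' protocols, from Nextera XT libraries, a kit without strand marking. The authors deposited raw counts and FPKM values of each gene for 6 libraries; genes carry the coordinates of GENCODE M21 on GRCm38, and 0 columns had no sample. Per the submitters' processing notes, the tools were STAR 2.5.2b, Picard 2.19.2, R 3.6.1 and DESeq2 1.24.0, with builds GRCm38/mm10 and GRCh38/hg38. No source used here names the read counter, its strand setting or its treatment of reads with several matches.

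Genotypes were taken from the labels. From the counts, genes passing filterByExpr (15519; members not passing were Rpl10l and Rpl3l) were scaled by TMM and fitted with robust quasi-likelihood models in edgeR 4.0.16 (R 4.3.3), genotype being the only term; tests were two-sided and p-values were adjusted by Benjamini-Hochberg over all genes, with a threshold of 0.05. CPM use TMM-scaled totals; standard errors and 95% intervals follow from the fold change and its F statistic. Alternatives used limma 3.58.1 and DESeq2 1.42.0. Totals per library were 32478107, 36307610 and 19956153 (HDAC1-cKO) and 52071923, 55900237 and 39036751 (WT); reads have no molecular identifiers, so floors cover counting error only. The fit was also run on counts simulated from the means and spread it estimated in these data. Those counts held no trend with GC content or length, so the run cannot show how the fit handles such trends. GC content, length and shared 50-base stretches refer to 1 main transcript per gene. RefSeq promoter windows were matched by symbol. Figures were drawn with matplotlib 3.10.9.

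Members, gene lists and the rule for named genes were chosen with earlier results of these data known. That rule names Hdac1, called members, the 4 highest and 4 lowest differences, the 5 highest mean FPKM, preset copies, stalk genes and well-studied members, and in each list up to 3 called genes or the 1 with the lowest p. Some genes that it names are not reported here. Rps16, Rps10, Rpl23a and the pseudogenes were named after their values were seen.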

Additional observations from a re-analysis of the deposited data

How the results depend on the processing

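Members were called in 1 of 23 alternatives, limma-voom with sample weights (1 called higher, Rps27l); 22 called 0 in either direction. Calls over all genes moved more: from 306, they were 1356 with DESeq2, 1589 with limma-voom, 558 with GC offsets, 528 with GC and length offsets, 818 at an adjusted p under 0.10, 24 under 0.01, and 26 to 626 with 1 library left out, the most without HDAC1-cKO replicate 2. Deviations of the libraries with the same replicate number correlated at 0.21, 0.00 and -0.15 (4954 genes), and HDAC1-cKO replicate 2 correlated best with WT replicate 3. Whether libraries of the same replicate number were handled as pairs was not tested. With the replicate block 65 genes and 0 members were called.

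The median over members ran from -0.01 to 0.12 with 1 library left out (large subunit -0.02 to 0.12, small subunit -0.03 to 0.09), so its sign is not settled; the cause was not tested. For 32 named genes 696 of 735 alternative values kept direction and side of the threshold, and 38 values of 17 members changed sign, all of members that were not called. These were Rpl7 0.0063 and Rpl5 0.0184 with upper-quartile factors; Rps27 -0.0389, Rpl36al 0.0488, Rpl7 0.0515, Rplp2 -0.0447 and Rpl5 0.0854 with limma-voom; Rpl7 0.0569, Rplp2 -0.0244 and Rpl5 0.1513 with GC offsets. With GC and length offsets they were Rpl13 -0.0378, Rpl39 -0.0059, Rplp2 -0.082, Rpl5 0.114, Rpl11 -0.0614 and Rps14 -0.0077, and with pseudogene counts added Rpl29 0.037. With 1 library left out the ranges were -0.0159 to 0.1113 for Rpl11, -0.0262 to 0.1601 for Rpl13, -0.0242 to 0.1213 for Rpl36a, -0.2356 to 0.0361 for Rpl36al, -0.0063 to 0.1662 for Rpl39, -0.8438 to 0.0764 for Rpl39l, -0.1239 to 0.1111 for Rpl5, -0.0819 to 0.0583 for Rpl7, -0.0487 to 0.184 for Rpl7l1, -0.0172 to 0.2605 for Rplp1, -0.0981 to 0.1351 for Rplp2, -0.0845 to 0.1923 for Rps27, -0.1341 to 0.0151 for Rps4x, -0.097 to 0.003 for Rps6 and -0.0291 to 0.1241 for Rpsa. Low counts left Rpl3l and Rpl10l untested, and the 95% intervals of Rpl39l and Rps10 beyond 2-fold.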
